A study of Mus musculus with 12 samples.

Results

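Glycolysis and hypoxia response genes were followed as 37 genes, measured by 62 probes, of 35080 gene names and 55681 probes on a mouse expression array. They were taken by name: glucose transporters, the enzymes that turn glucose into lactate, the oxygen-regulated HIF alpha subunits with their prolyl hydroxylases, and genes known as HIF targets. The study compared 2 mouse cell lines in 4 groups of 3 arrays. RAW264.7 cells, a macrophage-like line, carried the PLKO vector as control or a short hairpin RNA against Abhd5 (ABHD5-KD), the co-activator of a lipid droplet lipase. CT-26 cells, a colon carcinoma line, had been primed by control or by ABHD5-KD RAW264.7 cells and the labels name no construct for them. The labels do not say how the priming was done, whether the CT-26 cells were separated from the macrophages before RNA extraction, whether the lines were clones, what oxygen or glucose they were grown in, or whether the 3 samples of a group were separate cultures. All p-values here thus rest on the spread between these samples alone, which may be technical. In total RNA from a culture, fewer cells of a type and less RNA per cell cannot be told apart.

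Glycolysis splits glucose into pyruvate, which lactate dehydrogenase turns into lactate when little of it enters mitochondria. HIF alpha subunits are hydroxylated by the EGLN prolyl hydroxylases and destroyed while oxygen is present; when they persist, they pair with ARNT, bind a short core element and raise transporters, glycolytic enzymes and collagen-modifying enzymes. Macrophages are known to turn to glycolysis on inflammatory activation, and to use HIF in doing so.

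The HIF core element was looked for in the 250 bases before each start site in a RefSeq promoter table (GRCm38.p6). The letters searched were ACGTG and GCGTG on both strands, and overlapping matches were counted separately, so the palindrome CACGTG counts as 2. Of the 37 genes, 34 were in the table, with 46 start sites; Epas1, Slc2a3 and Ndrg1 were not. A match stood in 39 of the 46 windows (84.8%) and in at least 1 window of 31 of the 34 genes (91.2%). Over the whole table a match stood in 38.6% of 32851 windows and 41.5% of 27025 genes, and over protein-coding genes in 44.0% of 21263 windows and 47.1% of 17492 genes. The members' windows were also richer in G and C, with a median of 61.6% against 52.4% for all windows and 55.6% for protein-coding ones, and the part of base composition in the excess of matches was not tested. A match is a run of letters, not a shown binding site, and many members are on the list because they are known HIF targets.

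Below are the windows of the 4 genes in the table that rose in knockdown macrophages, then of Ankrd37, which fell in primed CT-26 cells, and of Ldha, with 5 matches, which passed the threshold in neither line alone but differed between them. Each reads 5′ to 3′ on the gene's own strand and ends at the base before the start site, and capitals mark the matches. P4ha2 lies at chr11:54100674-54100923 (plus strand), with matches starting at -107, -78 and -69 from the start site. Ero1a lies at chr14:45318573-45318822 (minus strand), with matches at -128, -88 and -63. Hk3 lies at chr13:55021386-55021635 (minus strand) and has 1 match, at -156. Hif1a lies at chr12:73907617-73907866 (plus strand), with the palindrome at -135 and a match at -70. Ankrd37 lies at chr8:45999851-46000100 (minus strand), with matches at -241, -155, -152 and -6. Ldha lies at chr7:46845554-46845803 (plus strand), with palindromes at -145 and -48 and a match at -34.
P4ha2: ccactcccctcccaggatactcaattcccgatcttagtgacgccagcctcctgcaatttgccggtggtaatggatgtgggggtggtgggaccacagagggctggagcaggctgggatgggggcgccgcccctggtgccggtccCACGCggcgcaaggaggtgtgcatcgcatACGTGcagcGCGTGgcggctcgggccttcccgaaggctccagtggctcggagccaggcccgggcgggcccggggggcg
Ero1a: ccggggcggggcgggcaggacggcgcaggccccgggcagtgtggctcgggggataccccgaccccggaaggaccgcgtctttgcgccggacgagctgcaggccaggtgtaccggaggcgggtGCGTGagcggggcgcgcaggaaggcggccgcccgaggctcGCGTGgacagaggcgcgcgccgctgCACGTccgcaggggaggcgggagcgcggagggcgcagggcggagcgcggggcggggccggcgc
Hk3: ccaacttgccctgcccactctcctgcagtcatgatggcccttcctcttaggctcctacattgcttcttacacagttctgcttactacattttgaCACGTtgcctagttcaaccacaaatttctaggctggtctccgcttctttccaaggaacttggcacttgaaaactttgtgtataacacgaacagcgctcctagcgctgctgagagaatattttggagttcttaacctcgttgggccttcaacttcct
Hif1a: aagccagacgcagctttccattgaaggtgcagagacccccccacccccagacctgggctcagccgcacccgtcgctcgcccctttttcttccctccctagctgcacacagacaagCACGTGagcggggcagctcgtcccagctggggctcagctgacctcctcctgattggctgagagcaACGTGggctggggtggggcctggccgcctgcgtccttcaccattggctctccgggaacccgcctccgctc
Ankrd37: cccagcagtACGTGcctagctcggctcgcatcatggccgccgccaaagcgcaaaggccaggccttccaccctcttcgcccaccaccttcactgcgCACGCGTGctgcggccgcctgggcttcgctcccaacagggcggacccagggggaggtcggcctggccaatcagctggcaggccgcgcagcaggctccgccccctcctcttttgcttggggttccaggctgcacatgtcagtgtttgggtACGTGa
Ldha: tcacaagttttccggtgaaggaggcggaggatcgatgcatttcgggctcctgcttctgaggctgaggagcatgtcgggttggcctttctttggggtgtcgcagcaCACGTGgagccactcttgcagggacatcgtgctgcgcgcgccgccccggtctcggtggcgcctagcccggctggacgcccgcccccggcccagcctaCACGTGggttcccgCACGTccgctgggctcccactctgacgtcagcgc

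Levels are given as log2 of the spot signal minus the array's 75th percentile, so 0 is the 75th percentile and 1 unit is a doubling; levels of different probes are not comparable. A spot well above background is one that the scanner software called so. Such spots made up 56.5% to 77.3% of an array, and the signal at the 75th percentile ran from 1679 on RAW264.7 control array 2 to 3718 on control-primed CT-26 array 3. RAW264.7 control arrays 1 and 2 lay on one slide, control array 3 with all 3 knockdown arrays on another, and the 6 CT-26 arrays on the third, so cell line and slide cannot be told apart. Abhd5 stood at 1.38, 1.93 and 1.52 in control and at 0.25, 0.23 and 0.39 in knockdown RAW264.7 arrays (change -1.32 ± 0.20, SE, limma adjusted p = 0.00346). All 15 macrophage markers were well above background in both RAW264.7 groups, but only 10 of 15 in control-primed and 9 of 15 in knockdown-primed CT-26 cells, where Adgre1, Spi1 and Cybb were well above background on no array. Of 9 epithelial markers, 7 were well above background on every array of each CT-26 group, yet Cdh1 on none and Epcam on 1, while 6 of 7 fibroblast or mesenchymal markers were, Col1a1 and Col1a2 among them. The summed linear level of the epithelial markers was 1.86 to 2.73 on control RAW264.7 and 32.9 to 37.3 on control-primed CT-26 arrays. Yet 3 of these 9 were well above background on every control and 7 on every knockdown RAW264.7 array. The summed level of all 9 was 1.48 to 1.60 on the knockdown arrays, below the controls. The lowest level called well above background was -4.80 and -4.60 on RAW264.7 control arrays 1 and 2. It was -6.68 on control array 3 and -6.77 to -6.32 on the knockdown arrays. Of the 37 genes, 33 reached that call on each of the 12 arrays and 35 could be tested. Ldhb, the heart-type lactate dehydrogenase subunit, and Slc16a1, a proton-linked lactate transporter, were well above background on 2 control-primed CT-26 arrays and nowhere else, and were not tested.

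In RAW264.7 cells, silencing Abhd5 went with higher levels of the HIF alpha genes Hif1a and Epas1, 2 protein-modifying enzymes of the endoplasmic reticulum and 1 hexokinase. No enzyme of the glycolytic chain below hexokinase passed the test. Hif3a, another HIF alpha gene outside the members, changed by -0.32 and did not pass (limma adjusted p = 0.261). P4ha2, the subunit of a collagen prolyl hydroxylase, rose 12.9-fold, Hk3, a hexokinase of myeloid cells, 7.12-fold, Ero1l (now Ero1a), which oxidises disulphide isomerase in the endoplasmic reticulum, 2.80-fold, Epas1, encoding HIF-2 alpha, 2.73-fold, and Hif1a 1.95-fold. These 5 of 35 tested members (14.3%) rose and 0 fell, by limma with Benjamini-Hochberg adjustment over all genes. In other settings members were also called lower: 1 with a stricter filter on dim probes and 1 with the mean over probes. The number lower was 2 with all 12 arrays in 1 fit and 2 without control array 2. At an unadjusted p below 0.05 there were 7 higher and 2 lower of 35, where 11.5% of all genes were higher and 32.9% lower. Of all 25461 genes tested, 22.8% passed the threshold, 7.94% higher and 14.8% lower, so the share of members called was below that of the array. That order turned in other settings: the share was 17.1% of members against 15.9% of all genes with quantile normalization, 10.8% against 7.53% without a filter on dim probes, 5.71% against 4.58% with the slide as a factor and 11.4% against 7.34% within the shared slide. It was 11.4% without control array 1, against 10.9%, and 11.4% without knockdown array 1, 2 or 3, against 10.5%, 7.73% and 6.65%. The median change of the members was -0.07, against -0.30 for all genes tested. This median of all genes moved to -0.08 with median centring and -0.08 with quantile normalization, and to -0.37 with normexp background correction. The share of higher among all calls was 34.8%, and 62.5%, 53.9% and 22.9% under those settings, whereas the 5 members stayed called and higher under each of them.

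**Figure D1:**
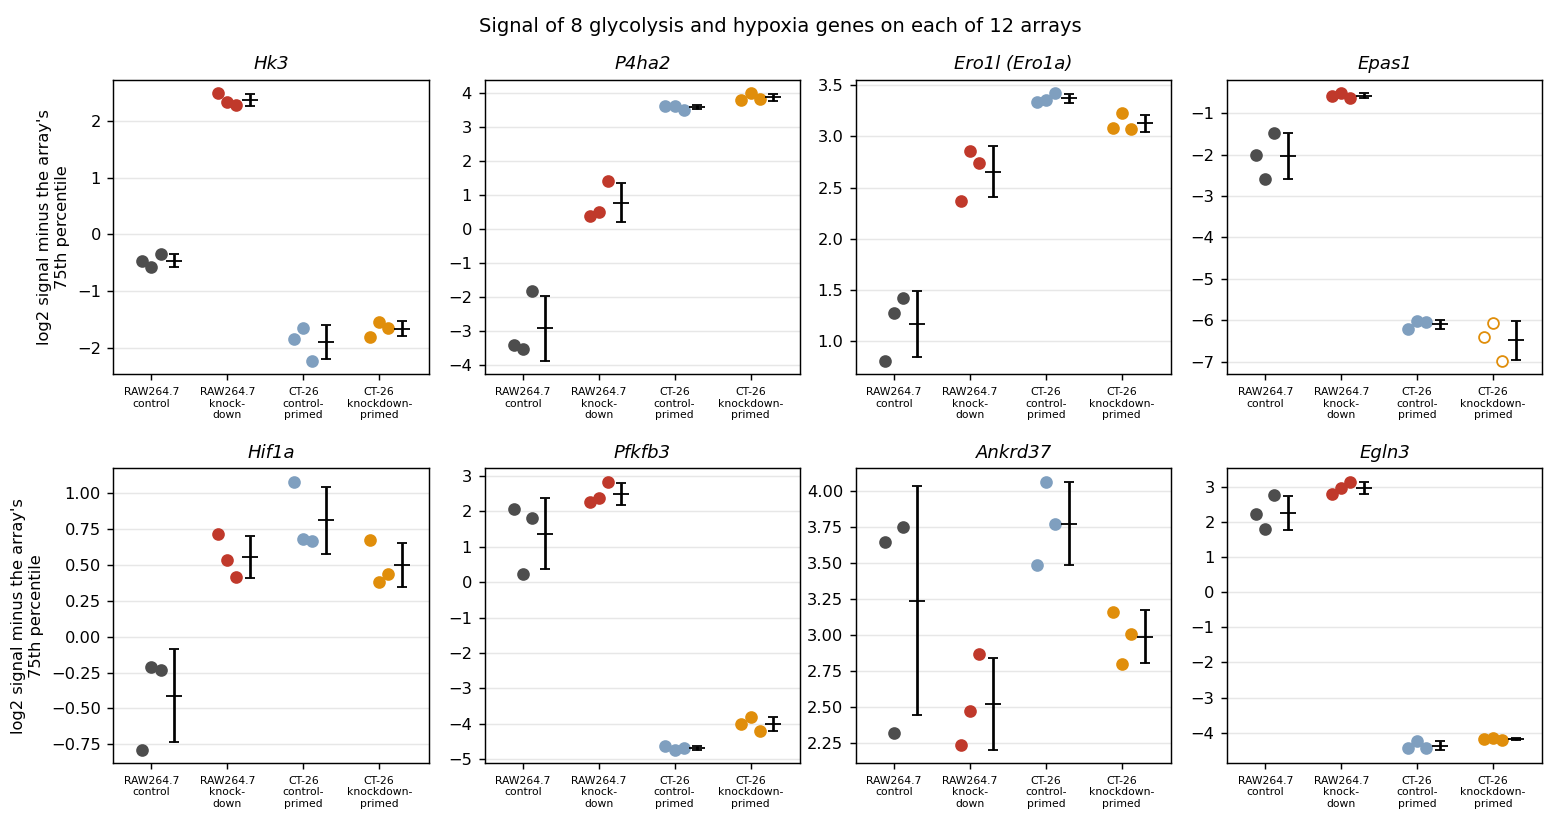
Levels of 8 genes on each of the 12 arrays, as log2 signal minus the array's 75th percentile (each panel has its own axis). Points are arrays in order of replicate number, open points mark a group with no array well above background, and the bar beside each group is the mean ± SD (n = 3). Hk3, P4ha2, Ero1l, Epas1 and Hif1a lay higher on all 3 knockdown than on all 3 control RAW264.7 arrays, and Ankrd37 lay lower on all 3 knockdown-primed than on all 3 control-primed CT-26 arrays.

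Hif1a encodes the alpha subunit that drives much of the glycolytic response. It stood at -0.79, -0.21 and -0.23 in control and 0.71, 0.53 and 0.42 in knockdown cells, and every knockdown array lay above every control array. The change was 0.96 ± 0.21 (SE, n = 3 per group, limma adjusted p = 0.0184). Its adjusted p was the highest of the 5. It was lost without control array 1 (adjusted p = 0.0505) and without knockdown array 1 (0.0666), 2 (0.0681) or 3 (0.0578). A second Hif1a probe, in the same gene at chromosome 12, 75033965 to 75034024 (mm9), was well above background on no RAW264.7 array, and the mean over both probes changed by 0.26 (adjusted p = 0.364). The probe used lies at 75047269 to 75047329.

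Epas1, the HIF alpha gene best known from endothelium and also expressed in macrophages, was at -2.01, -2.58 and -1.48 in control and -0.59, -0.51 and -0.62 in knockdown cells. The 3 knockdown arrays lay close together and above all controls, with a change of 1.45 ± 0.27 (adjusted p = 0.00965, limma). Its 3 probes differed: the one used (chromosome 17, 87230587 to 87230646, mm9) gave 1.45, another (87232615 to 87232674) gave 1.88, and the third (87230678 to 87230737), well above background on 2 of 3 control arrays, gave 0.29 (adjusted p = 0.473 in a fit of single probes). Egln1, the main oxygen sensor among the prolyl hydroxylases, was at -2.48, -3.29 and -2.05 in control and -2.22, -2.31 and -1.51 in knockdown cells, and the groups overlapped. Its change of 0.60 had a 95% interval of -0.19 to 1.38 (adjusted p = 0.204). Egln3, a prolyl hydroxylase that is itself a HIF target, was at 2.23, 1.81 and 2.77 against 2.79, 2.96 and 3.15. All knockdown arrays were above the controls, the nearest pair by little, and the change of 0.70 (95% interval 0.11 to 1.29) did not pass (adjusted p = 0.0767).

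Among the downstream genes, P4ha2 was at -3.42, -3.54 and -1.82 in control and 0.36, 0.50 and 1.42 in knockdown cells. The groups were far apart, and control array 3 stood above the other controls. The change was 3.68 ± 0.47 (limma adjusted p = 0.00145). Its sister gene P4ha1, which encodes the other common catalytic subunit, did not pass, at -0.54 (95% interval -1.15 to 0.08, adjusted p = 0.155). Ero1l was at 0.81, 1.27 and 1.43 in control and 2.37, 2.85 and 2.74 in knockdown cells, without overlap, a change of 1.49 ± 0.23 (adjusted p = 0.00377). The summed linear level of the 7 fibroblast or mesenchymal markers lay at 0.137 to 0.227 on control and 0.137 to 0.272 on knockdown RAW264.7 arrays, against 62.0 to 64.7 on control-primed CT-26 arrays, where P4ha2 and Ero1l were also higher. One of the 7, Dcn (the proteoglycan decorin), passed the test: it was well above background on 0 of 3 control and on all 3 knockdown RAW264.7 arrays, with mean levels of -6.30 and -5.42 (adjusted p = 0.0209). Both levels lie below the lowest one called well above background on control arrays 1 and 2 (-4.80 and -4.60). The calls of both groups thus cannot be compared at this level. The part of other cells' RNA in the P4ha2 and Ero1l results was not tested.

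Hk3 was at -0.47, -0.58 and -0.35 in control and 2.49, 2.33 and 2.28 in knockdown cells. Arrays of one group differed by little beside the gap, and the change was 2.83 ± 0.17 (limma adjusted p = 2.52e-05), on a probe at chromosome 13, 55107900 to 55107959 (mm9). The 2 other hexokinase genes did not pass: Hk1, the widely expressed form, changed by -0.49 and Hk2, the inducible form of muscle and many tumours, by -0.15. Some macrophage markers passed in the same arrays: Adgre1 rose by 2.86, Fcgr3 by 2.92, Mpeg1 by 2.77 and Lyz2 by 1.88, and Cybb fell by 1.22. The rest of the 15 did not pass. Among these were the defining markers Cd68 (-0.60), Itgam (-0.38), Csf1r (-0.34), Ptprc (0.21) and Spi1 (0.18). The summed level of the 15 macrophage markers was 316 to 362 on control and 339 to 382 on knockdown arrays. The part of these mixed marker changes in the Hk3 result was not tested.

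The slide bears on all 5 genes, since 2 of the 3 control arrays lay apart from the knockdown arrays. With the slide as a factor in the fit, Hk3 (2.71, adjusted p = 0.000559) and P4ha2 (2.58, 0.00941) stayed called, while Ero1l (1.23, 0.0708), Epas1 (0.90, 0.154) and Hif1a (0.78, 0.226) did not. Among the 4 arrays of the shared slide the changes were the same as in that fit, and Hk3, P4ha2, Ero1l and Epas1 passed while Hif1a did not (adjusted p = 0.0729). That fit takes the spread of its lone control array from the knockdown group.

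**Figure D2:**
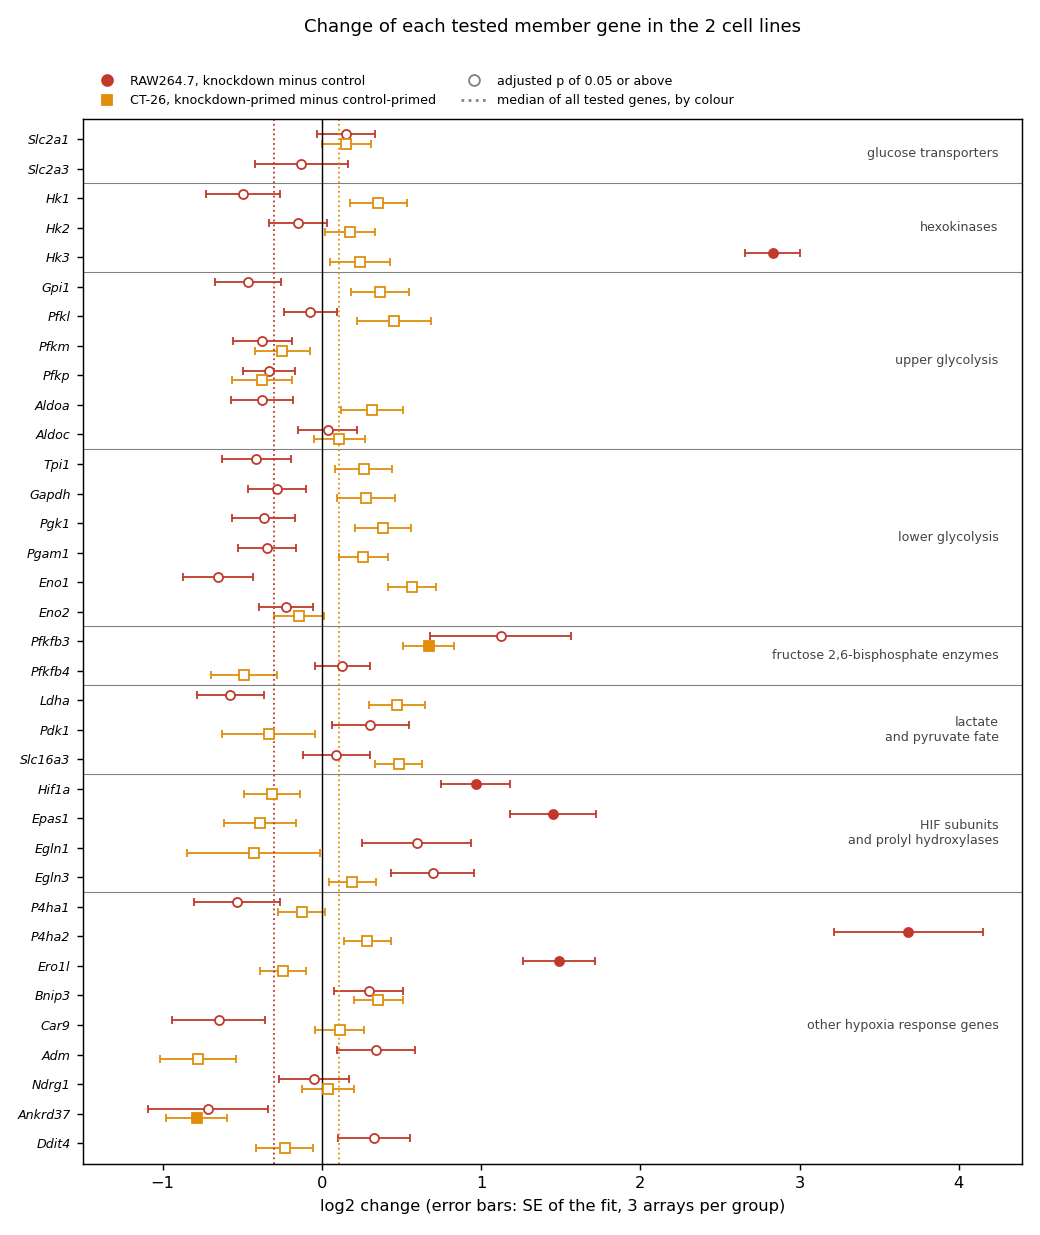
Log2 change of each of the 35 tested genes, knockdown minus control in RAW264.7 cells (circles) and knockdown-primed minus control-primed in CT-26 cells (squares), with the SE of the fit and 3 arrays per group. Filled symbols passed an adjusted p of 0.05, and dotted lines mark the medians of all genes tested (-0.30 and 0.11). The 5 filled circles lie among hexokinases, HIF subunits and hypoxia genes, and the glycolytic enzymes cluster about the dotted lines.

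The chain from glucose 6-phosphate to phosphoenolpyruvate was read as 12 genes: Gpi1 (isomerase), Pfkl, Pfkm and Pfkp (phosphofructokinase subunits), Aldoa and Aldoc (aldolases), Tpi1, Gapdh, Pgk1, Pgam1, Eno1 and Eno2. In RAW264.7 cells 0 of 12 passed, with 1 lower at an unadjusted p below 0.05, where 32.9% of all genes were. Of the 12, 11 lay below 0, where 69.4% of all genes tested did. Their changes ran from -0.65 for Eno1 (adjusted p = 0.061) to 0.03 for Aldoc, with a median of -0.36 against -0.30 for all genes. In 8 of the 12 every knockdown array lay below every control array, where 39.7% of all genes tested did so. With quantile normalization the sign turned: 9 of 12 lay above 0, with a median of 0.11 against -0.08 for all genes, and with median centring and normexp the medians were -0.14 and -0.34. The 8 Gapdh probes gave -0.28 to -0.54; 3 of them have a deposited position outside the chromosome of Gapdh, as do the only probes of Eno1 and Pgk1 and the brightest of Hk1, so signal from related sequences cannot be told apart there.

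Arrays differed in brightness, and the enzymes moved with it. The median of the 12 enzymes, as the deviation from the mean of the line's control group, was -0.17, 0.25 and -0.05 on the RAW264.7 control arrays and -0.42, -0.28 and -0.35 on the knockdown arrays. It was -0.02, 0.06 and -0.02 on the control-primed and 0.08, 0.16 and 0.54 on the knockdown-primed CT-26 arrays. The highest value within each line fell on its dimmest array: RAW264.7 control array 2 (1679 at the 75th percentile) and knockdown-primed array 3 (1807). The part of brightness in the enzyme changes was not tested.

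**Figure D3:**
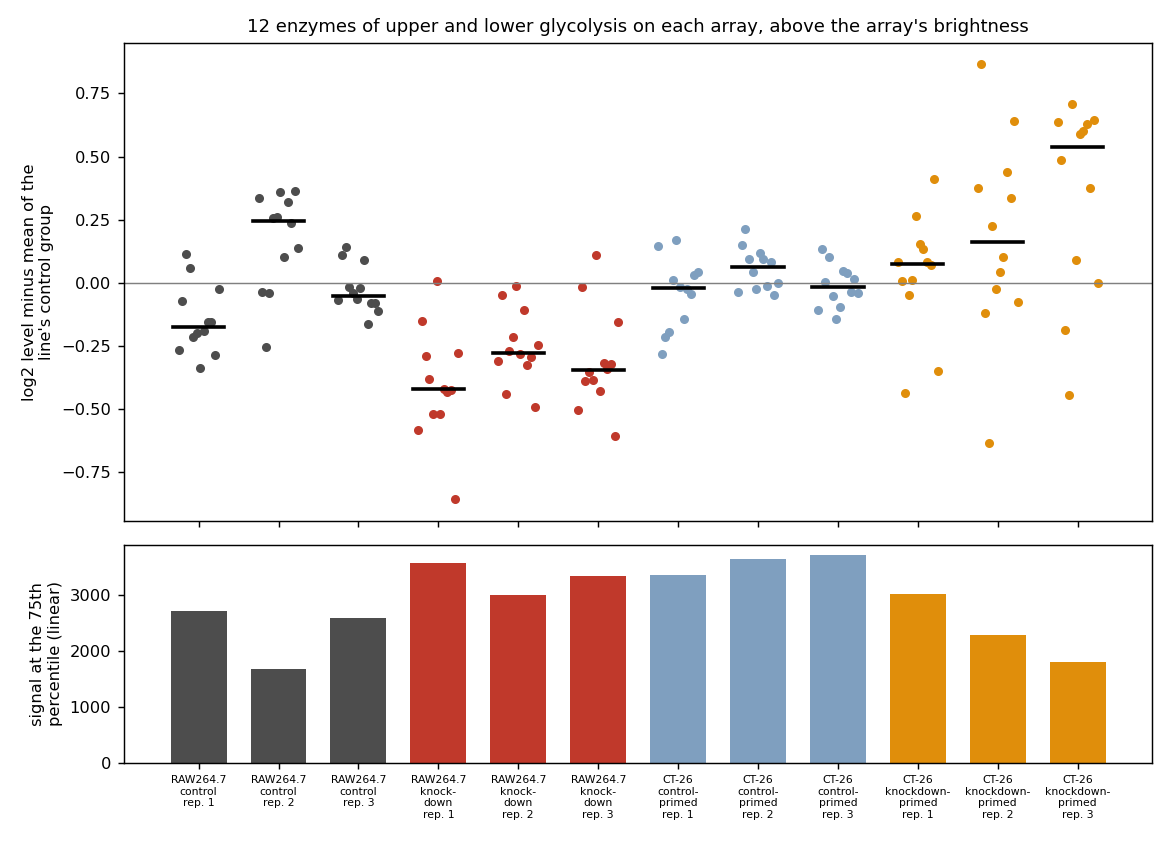
Upper panel: the 12 enzymes of upper and lower glycolysis on each array, as the log2 level minus the mean of the control group of the same line (points are genes, bars the median of 12). Lower panel: the linear signal at each array's 75th percentile, which ran from 1679 to 3718. RAW264.7 knockdown arrays have medians of -0.42 to -0.28 and knockdown-primed CT-26 arrays of 0.08 to 0.54.

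The remaining RAW264.7 members did not pass. Of the glucose transporters, Slc2a1 (the basal transporter) changed by 0.15, and by 0.60 with a call under quantile normalization, and Slc2a3 (the high-affinity one) by -0.13. Pfkfb3, whose product makes the activator of phosphofructokinase, was at 2.06, 0.21 and 1.80 in control and 2.26, 2.36 and 2.82 in knockdown cells; all knockdown arrays were above the controls, which spread widely, and the change of 1.12 had an adjusted p of 0.0882 while a dimmer probe gave 0.35. Pfkfb4, its relative, changed by 0.13, with 0.87 on a dimmer probe. Of the genes that set the fate of pyruvate, Ldha (lactate dehydrogenase A) changed by -0.58 (adjusted p = 0.073), Pdk1, which switches off pyruvate dehydrogenase, by 0.30 and Slc16a3, the lactate exporter, by 0.09. Of the hypoxia genes, Bnip3 (mitophagy) changed by 0.29, with 0.19 and 1.06 on other probes, Adm (the peptide adrenomedullin) by 0.34, Ddit4 (an mTORC1 inhibitor) by 0.33, Ndrg1 (a stress-response gene) by -0.05, Car9 (carbonic anhydrase IX, a marker of tumour hypoxia) by -0.65 and Ankrd37 (an ankyrin-repeat protein) by -0.72. Over all 35 members the groups did not overlap for 7 in the higher and 10 in the lower direction, where 12.5% and 39.7% of all genes did so.

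In CT-26 cells few members differed with the kind of macrophage that had primed them. Pfkfb3 rose 1.59-fold and Ankrd37 fell 1.73-fold in knockdown-primed cells, and these were the 2 of 34 tested members called (5.88%). Of 24997 genes tested, 6.36% passed, 3.15% higher and 3.21% lower, so the members' share was near that of the array. Pfkfb3 was at -4.61, -4.72 and -4.67 after control priming and -4.00, -3.80 and -4.20 after knockdown priming. All of these were well above background but low for this probe in comparison with the RAW264.7 arrays, and the groups did not overlap. The change was 0.67 ± 0.16 (SE, limma adjusted p = 0.0436, 95% interval 0.31 to 1.03). The other Pfkfb3 probe was well above background on no CT-26 array and could not be tested there. Ankrd37 was at 3.49, 4.06 and 3.77 against 3.16, 2.80 and 3.0. All knockdown-primed arrays lay below the control-primed ones, with a change of -0.79 ± 0.19 (adjusted p = 0.0444, 95% interval -1.22 to -0.36).

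Both CT-26 calls sat close to the threshold. No member was called when any of control-primed arrays 2 and 3 or knockdown-primed arrays 2 and 3 was left out, 1 without control-primed array 1, and 4 without knockdown-primed array 1. The count over all genes moved too, from 94 to 3001 when 1 array was left out. Of the macrophage markers tested, only Cd68 passed, falling by 0.83 in the knockdown-primed cells (limma adjusted p = 0.0208). The summed macrophage level was 55.5 to 61.2 on control-primed and 56.9 to 75.3 on knockdown-primed arrays. Most of it came from Itgam, at mean log2 levels of 5.60 and 5.77, a change of 0.17 that did not pass. The part of macrophage RNA in these results was not tested.

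The HIF genes of CT-26 cells did not pass. Hif1a was at 1.08, 0.68 and 0.67 after control priming and 0.67, 0.38 and 0.44 after knockdown priming, overlapping at their edges, with a change of -0.31 (95% interval -0.71 to 0.08). Epas1 was at -6.22, -6.01 and -6.06, well above background on all 3 arrays, and at -6.41, -6.07 and -6.99, well above background on none; the bound on the fold was below 1, so no fold is given. Its change of -0.39 turned positive with normexp (0.32) and with the mean over probes (0.16). Egln1 was at -1.31, -0.21 and -0.30 against -0.18, -1.09 and -1.85, a wide overlap (-0.43, adjusted p = 0.501). Egln3 was at -4.43, -4.23 and -4.44 against -4.19, -4.14 and -4.21, low and without overlap, and its change of 0.19 (95% interval -0.14 to 0.52) did not pass.

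Of the 12 enzymes 0 passed in CT-26 cells, with 1 higher at an unadjusted p below 0.05 (Eno1, 0.57, adjusted p = 0.0556), where 18.5% of all genes were. Below 0 lay 3 of the 12, where 39.5% of all genes did. Their median was 0.27 against 0.11 for all genes, and -0.01 against 0.05 with quantile normalization. The knockdown-primed arrays lay above all control-primed arrays for 3 enzymes, Gapdh, Pgk1 and Eno1, and below for none, where 25.1% and 11.1% of all genes tested did so; over all 34 members it was 10 and 4. Near the threshold lay Slc16a3 (0.48, adjusted p = 0.0797) and Adm (-0.78, 0.0764). The other Slc16a3 probe gave 0.72 and passed in a limma fit of single probes (adjusted p = 0.0479). The others lay between -0.49 (Pfkfb4) and 0.47 (Ldha), among them Slc2a1 (0.15), Hk1 (0.35), Hk2 (0.18), Hk3 (0.24), P4ha2 (0.28) and Ero1l (-0.24). Under median centring both calls were higher (Pfkfb3 and 1 enzyme), and Ankrd37 changed by -0.74 (adjusted p = 0.0595). The share of higher among all calls was 49.5%, against 62.6% with median centring and 64.5% with normexp.

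Whether the lines differed in their response was tested directly, as the RAW264.7 change minus the CT-26 change over all 12 arrays. Of 35 members 10 passed (28.6%), 6 higher and 4 lower, where 31.4% of 27074 genes passed, 7.44% higher and 23.9% lower. The 5 genes that rose in RAW264.7 cells also differed between the lines: P4ha2 by 3.40 ± 0.56, Hk3 by 2.59 ± 0.25, Epas1 by 1.84 ± 0.39, Ero1l by 1.73 ± 0.26 and Hif1a by 1.28 ± 0.28 (SE), with limma adjusted p from 4.18e-05 for Hk3 to 0.0078 for Hif1a. Other probes gave less for the HIF genes in a limma fit of single probes. They gave 0.64 (adjusted p = 0.249) and 0.68 (0.234) for Epas1, and -0.15 (0.863) for Hif1a. The Epas1 probe with 0.68 rose by 1.88 in RAW264.7 cells (0.000595) but was well above background on no CT-26 array. The Hif1a probe with -0.15 was so on no RAW264.7 array. The Epas1 value of 1.84 also subtracts a CT-26 change in which no knockdown-primed array was well above background. Adm was the sixth. It was at 1.70, 1.97 and 2.27 in control and 1.91, 2.40 and 2.66 in knockdown RAW264.7 cells, and at -3.45, -3.32 and -3.49 against -3.73, -4.15 and -4.72 in CT-26 cells. The macrophage groups overlapped while all knockdown-primed arrays were lower than the control-primed ones, a difference of 1.12 (adjusted p = 0.0392). This call was lost in 13 of 23 alternatives.

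The 4 lower genes were enzymes of the lower chain, the isomerase and lactate dehydrogenase. Eno1, an enolase, was at 6.23, 6.88 and 6.43 in control and 5.65, 6.02 and 5.90 in knockdown RAW264.7 cells, and at 6.33, 6.25 and 6.31 against 6.71, 6.94 and 6.94 in CT-26 cells. It passed in neither line alone, yet moved opposite ways without overlap in both, a difference of -1.22 (limma adjusted p = 0.00741). Ldha was at 5.75, 6.39 and 5.97 against 5.42, 5.58 and 5.39, and at 5.64, 5.60 and 5.53 against 5.79, 6.06 and 6.33, likewise without overlap (-1.05, 0.0161). Its 3 probes gave differences of -0.87 to -1.05. Gpi1 was at 5.50, 6.11 and 5.70 against 5.19, 5.46 and 5.27, and at 5.69, 5.51 and 5.44 against 5.63, 5.92 and 6.18, the CT-26 groups overlapping (-0.83, 0.0406). Pgk1, the first ATP-making enzyme, was at 5.50, 5.97 and 5.49 against 5.22, 5.33 and 5.31, and at 5.28, 5.29 and 5.34 against 5.38, 5.74 and 5.93, without overlap (-0.75, 0.0439).

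These 4 differences depended on the scaling. With quantile normalization they were -0.39 for Eno1 (adjusted p = 0.138), -0.25 for Ldha (0.246), -0.03 for Gpi1 (0.904) and 0.08 for Pgk1 (0.751), and 8 members were higher and 0 lower. Below 0 lay 11 of the 12 enzymes, where 67.7% of all genes did. The median of the 12 enzymes was -0.58 against -0.39 for all genes, and 0.14 against -0.10 with quantile normalization. With normexp 5 members were higher and 7 lower. The share of higher among all calls was 23.7%, and 34.4% with median centring, 41.4% with quantile normalization and 13.8% with normexp. With the slide as a factor 3 members remained called: Hk3, P4ha2 and Ero1l. The count was 15 without knockdown-primed array 1. The Pgk1 call was lost or turned in 16 of 23 alternatives and the Gpi1 call lost in 12 of 23.

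The lines themselves differed in most members. Control RAW264.7 cells were set against control-primed CT-26 cells, a comparison that shares its arrays with those above and in which slide and line cannot be told apart. Of 35 members 21 passed (60.0%), 12 higher and 9 lower in RAW264.7 cells, where 67.6% of 25588 genes passed, 42.2% higher and 25.3% lower. The split was 20 to 9 with median centring and 9 to 14 with quantile normalization. Differences of at least 4-fold were found for 7 members in the higher and 4 in the lower direction, where 7.06% and 11.4% of all genes were called. Among the 12 enzymes 1 lay below 0, where 37.5% of all genes did. The 11 members at least 4-fold apart kept their direction and call in the alternatives run for each. For 18 members the control RAW264.7 arrays lay above all control-primed CT-26 arrays and for 9 below, where 47.4% and 27.2% of all genes did so.

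Higher in macrophages was first Slc2a3, at 1.61, 0.74 and 1.81 in control RAW264.7 cells and well above background on no CT-26 array, with measured levels of -8.52, -9.07 and -8.07 after control priming. It was at least 269-fold higher (limma adjusted p = 2.06e-07), and at least 109-fold higher in knockdown than in knockdown-primed cells. The bound takes, on each CT-26 array, the lowest signal called well above background, or the Slc2a3 signal where that was higher. Egln3 was 99.6-fold, Aldoc 70.3-fold, Pfkfb3 65.2-fold, Adm 42.3-fold, Epas1 16.8-fold and Pfkp 4.18-fold higher. Probes of a gene differed here too: an Epas1 probe well above background on all 3 control-primed CT-26 arrays and on 2 of 3 control RAW264.7 arrays gave a log2 difference of 0.05 (adjusted p = 0.907), and the second Pfkp probe gave 1.36, against 4.07 and 2.06 for the probes used. Aldoc, the brain-type aldolase, was at 3.84, 4.30 and 3.97 against -1.93, -2.12 and -2.25, and Pfkp, the platelet-type phosphofructokinase, at 4.70, 4.60 and 4.63 against 2.39, 2.68 and 2.68, both without overlap.

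Higher in the carcinoma line were P4ha2, by 90.6-fold, with arrays at 3.62, 3.61 and 3.50, Car9 by 4.68-fold, Ero1l by 4.60-fold and Egln1 by 4.0-fold. Car9 was at 1.14, 2.06 and 1.87 in control RAW264.7 and 3.96, 3.89 and 3.90 in control-primed CT-26 cells. P4ha2 in knockdown macrophages, at 0.36 to 1.42, was still below every CT-26 array, and Ero1l, at 2.37 to 2.85, likewise. Ero1l was at 3.33, 3.35 and 3.42 on the control-primed arrays.

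Differences below 4-fold passed for 10 further members, 5 in each direction, and the groups overlapped for none of the 10. Slc16a3 was at 4.16, 4.73 and 4.42 in control RAW264.7 and 2.97, 2.84 and 2.96 in control-primed CT-26 cells, 2.86-fold higher in the macrophages (limma adjusted p = 0.000288). Hk3, at -1.84, -1.64 and -2.23 in CT-26 cells, was 2.70-fold higher in RAW264.7 cells (0.000475). The other 3 differed by less than 1 log2 unit. Hk1 was at 5.22, 5.98 and 5.39 against 4.98, 4.79 and 4.89 (log2 difference 0.64, adjusted p = 0.0362), with 0.29 and 0.62 on other probes. Pfkl was at 3.38, 3.42 and 3.56 against 2.63, 3.06 and 3.04 (0.54, 0.0328). Pfkfb4 was at 0.84, 0.66 and 0.76 against -0.31, 0.27 and 0.41 (0.63, 0.0356).

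In the other direction, P4ha1 was at -1.19, -0.97 and -1.67 in control RAW264.7 and 0.39, 0.40 and 0.62 in control-primed CT-26 cells, a log2 difference of -1.74 (limma adjusted p = 0.000253). P4ha1 and P4ha2, the collagen prolyl hydroxylase subunit genes among the members, were thus both higher in CT-26 cells. P4ha3, another such gene outside the members, was higher in RAW264.7 cells (1.05, limma adjusted p = 0.00522). Eno2, the neuron-type enolase, was at 2.89, 3.06 and 2.81 against 4.48, 4.44 and 4.4 (-1.52, 0.000108). Pdk1 was at 2.39, 1.49 and 1.98 against 2.79, 3.1 and 3.14 (-1.06, 0.00687). Bnip3 was at 3.68, 3.98 and 3.57 against 4.91, 4.90 and 4.85 (-1.15, 0.000786), with -0.51 and -1.28 on other probes. Hif1a, whose values are given above, differed by -1.22 (0.00196). Of the other members, Slc2a1, Hk2, Gpi1, Pfkm, Aldoa, Tpi1, Gapdh, Pgk1, Pgam1, Eno1, Ldha, Ndrg1, Ankrd37 and Ddit4 did not pass, with differences from -0.54 to 0.49.

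**Figure D4:**
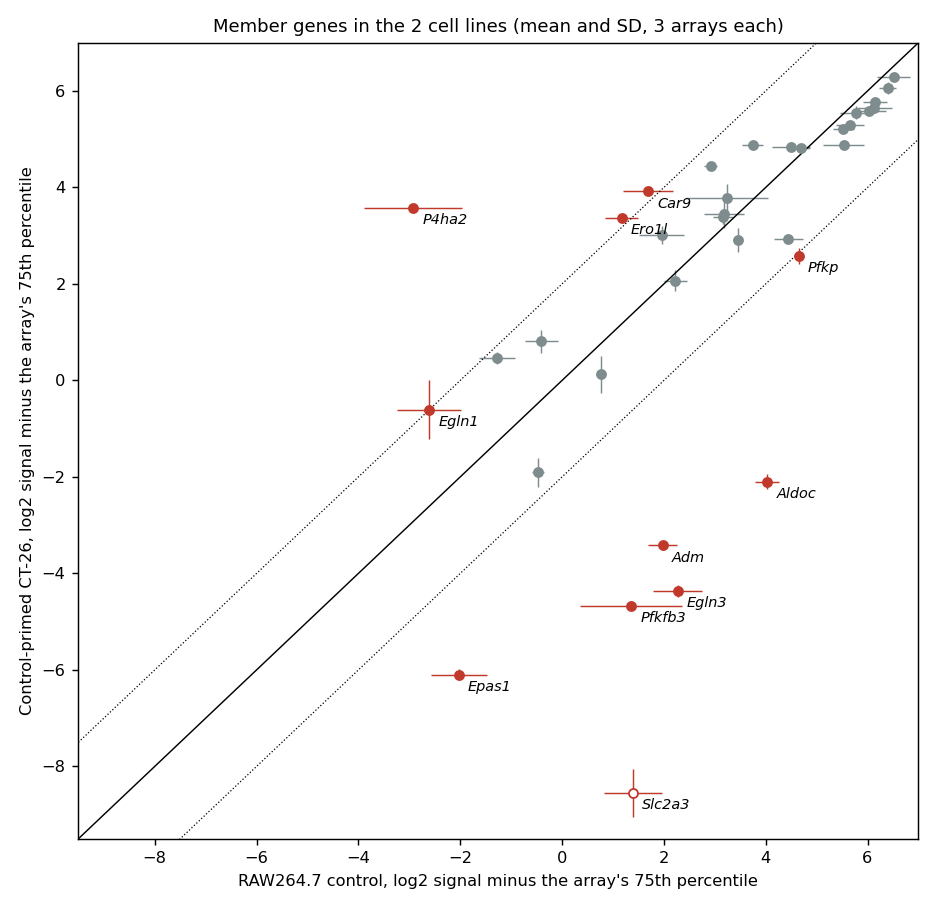
Mean level (± SD, n = 3 arrays) of each of the 35 tested genes in control RAW264.7 cells (horizontal) and control-primed CT-26 cells (vertical), both as log2 signal minus the array's 75th percentile. The solid line marks equal levels, the dotted lines a 4-fold difference, and the open symbol a gene not well above background in CT-26 cells. The 11 named genes differed by at least 4-fold and passed the threshold, from P4ha2 at upper left to Slc2a3 at lower right.

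A further list of 64 genes of the same pathways, among them pyruvate kinase, the pentose phosphate enzymes and other HIF targets, was counted in the same fits. In RAW264.7 cells 10 of 60 tested rose and 3 fell, where 7.94% of all genes rose and 14.8% fell, with a median of -0.10 against -0.30 for all genes. Plod2, a collagen lysyl hydroxylase, rose by 4.53 ± 0.40 (SE, adjusted p = 0.000182, limma), from a control group well above background on 1 of 3 arrays. Fbp1, the gluconeogenic enzyme that opposes phosphofructokinase, rose by 3.60 ± 0.38, also from 1 of 3 arrays. The control means of Plod2 (-6.23) and Fbp1 (-6.08) lay below the lowest level called well above background on control arrays 1 and 2 (-4.80 and -4.60). Both sizes are thus uncertain. Bhlhe40, a HIF-induced repressor, rose by 1.24, Slc2a4, the insulin-responsive glucose transporter, by 1.36, Tfrc, the transferrin receptor, by 1.41, and Hilpda, an inhibitor of the lipase that Abhd5 activates, by 1.16.

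In CT-26 cells 2 of 58 rose, Tfrc by 1.0 and Stc2 by 0.68, and 2 fell, Bhlhe40 by 1.33 and Mxi1, a MYC antagonist, which was well above background only after control priming and was at least 2.05-fold lower after knockdown priming; of all genes 3.15% rose and 3.21% fell. Between the responses of the lines, 7 of 62 were higher in RAW264.7 cells and 13 lower, where 7.44% and 23.9% of all genes were. The leading genes by p were Bhlhe40 (2.57), Plod2 (5.35, from the control group named above), Slc2a4 (1.39), Vegfa (1.34) and Dlat (-1.32). Fbp1 passed too, but no size is given, since no CT-26 array was well above background for it. Between the control cells of both lines, 27 of 59 were higher in RAW264.7 cells and 12 lower, where 42.2% and 25.3% of all genes were. Here the leading 6 were Stc2 (5.86), Ak4 (6.14), Plod2 (-8.71, with 1 of 3 RAW264.7 arrays well above background), Bhlhe40 (-3.96), Kdm3a (-4.19) and Car12 (2.94).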

How the data were processed

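Total RNA of 12 samples was amplified, labelled with Cy3 and hybridised to 1-colour Agilent arrays, per the labels' protocols. Per the file headers and the submitters' processing notes, the deposited scanner files hold each spot's intensity as read with Agilent Feature Extraction 10.7.3.1, with background-corrected processed signals, and probe positions are of mm9. The deposited value table holds log2 values for the RAW264.7 arrays and linear intensity for the CT-26 arrays, of which 5 columns matched another replicate of their group best; it served as an alternative only.

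Control spots (3671) and outlier spots (172 to 272 per array) were left out. Processed signals were put on the log2 scale minus the array's 75th percentile. Names came from accessions through a RefSeq table (26762 probes), symbols (3819) or the array design (25100). The brightest detected probe stood for a gene, tested if called well above background throughout either group. limma 3.58.1 in R 4.3.3 was used (lmFit, eBayes, two-sided, Benjamini-Hochberg over all genes, threshold 0.05), checked on simulated data. Members and lists were chosen with earlier results of these data known. Every member is named. Values in each sample of the groups compared are given for called members and HIF regulators. Other pathway genes are named up to 6 per comparison by smallest p, besides P4ha3 and Hif3a, added as relatives of members. Alternatives varied scaling, background, filter, probe, slide, block and samples. The number of arrays limits the precision.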

Additional observations from a re-analysis of the deposited data

Results flagged for a closer look

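For 10 genes the change in RAW264.7 cells differed from that in CT-26 cells by the limma interaction test over 12 arrays. Higher in RAW264.7 cells were the differences of P4ha2 (3.40 on the log2 scale), Hk3 (2.59), Epas1 (1.84), Ero1l (1.73), Hif1a (1.28) and Adm (1.12). Lower were those of Eno1 (-1.22), Ldha (-1.05), Gpi1 (-0.83) and Pgk1 (-0.75). Groups of 3 arrays were too small to look for single arrays that stand apart.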

How the results depend on the processing

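Of the member counts, that of RAW264.7 cells was 9 with all 12 arrays in 1 fit and 2 with the slide as a factor, against 5, and 4 to 7 when 1 array was left out. That of CT-26 cells was 0 without a filter on dim probes, 0 with the replicate block and 0 with all 12 arrays in 1 fit, against 2, and 0 to 4 when 1 array was left out. The count of differences between the lines was 3 with the slide as a factor, against 10, and 7 to 15 when 1 array was left out. That of the control lines was 18 to 21 when 1 array was left out, against 21. Directions turned for Epas1 in CT-26 cells with normexp (0.32) and the mean over probes (0.16), for the Pgk1 difference with quantile normalization (0.076) and for the Egln3 difference with the mean over probes (-0.058); the cause was not tested.

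Replicate numbers showed no sign of pairing the samples: same-numbered arrays deviated from their group means with correlations of -0.29 to 0.06. With 3 arrays per group, these values cannot show that the samples were unpaired. With the replicate block 5, 0, 9 and 18 members were called in RAW264.7 cells, in CT-26 cells, between the responses and between the control lines. The 3 arrays per group, of unequal brightness, limit every value. Dim probes lie near background: Epas1, Egln3, Pfkfb3 and Slc2a3 in CT-26 cells, and Ldhb and Slc16a1 in both lines. Hk3 and P4ha2 in RAW264.7 cells stayed called in all 18 alternatives run, Ero1l and Epas1 in 17, and Hif1a in 10, its adjusted p being 0.0553 without a filter on dim probes.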
